A study of Mus musculus with 6 samples.

Results

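The miR-15/16 family was followed through small RNA libraries of mouse prefrontal cortex, together with its relatives miR-195, miR-497 and miR-322. The 7 members were mmu-miR-15a-5p, mmu-miR-15b-5p, mmu-miR-16-5p, mmu-miR-195a-5p, mmu-miR-497a-5p, mmu-miR-322-5p and mmu-miR-322-3p, and an entry of the deposited table belonged to a member when its miRNA name, without the suffix for length variants, was the same. They stood on 8 of the 1115 entries and gave 7 of the 1013 distinct sequences, since miR-16-5p had an entry for each of its gene copies. All mice were male C57BL/6 animals, an inbred strain, with a labelled age of 30 weeks. The treated group had received nano-polystyrene (PS-NP), plastic particles in the nanometre range, at 50 mg per kg body weight by daily oral gavage for 6 months, and the control group had received water. Each group had 3 libraries, which held 6170654 to 9905746 reads assigned to miRNAs. The labelled tissue was checked only as far as neural origin, since none of the markers separates cortex from other brain regions: 4 neuronal miRNAs, led by miR-128-3p and miR-124-3p, summed to 149900 to 206100 CPM in every library, while the liver miRNA miR-122-5p was at 4.68 to 8.25 CPM. In bulk tissue such as this, fewer cells of a type and less RNA per cell cannot be told apart.

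A mature miRNA guides the Argonaute protein to messenger RNAs that pair with its seed, the bases 2 to 8 from its 5′ end, and lowers their stability and translation. The miR-15/16 family is known for holding back the cell cycle and survival by targeting D-type and E-type cyclins and the anti-apoptotic protein BCL2, and the human miR-15a/16-1 genes are lost in many chronic lymphocytic leukaemias. miR-195 and miR-497 come from neighbouring hairpins, and miR-195 is known for cell cycle exit of heart muscle cells after birth in mice. miR-322 is the mouse counterpart of human miR-424 and lies beside miR-503, a pair that drives muscle precursor cells out of the cell cycle in mice.

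The sequences are shown because the members are grouped by their seed, and because several of them differ at few other bases. Each is given as the deposited table lists it, 5′ to 3′, with the seed in capitals:
mmu-miR-15a-5p: tAGCAGCAcataatggtttgt
mmu-miR-15b-5p: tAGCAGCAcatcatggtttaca
mmu-miR-16-5p: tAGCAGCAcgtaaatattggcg
mmu-miR-195a-5p: tAGCAGCAcagaaatattggca
mmu-miR-497a-5p: cAGCAGCAcactgtggtttgt
mmu-miR-322-5p: cAGCAGCAattcatgttttgga
mmu-miR-322-3p: aAACATGAagcgctgcaaca

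The first 6 share the seed AGCAGCA, and mmu-miR-322-3p, the opposite strand of the miR-322 hairpin, has the unrelated seed AACATGA. Outside the seed the family was less alike. Counted from the 5′ end without gaps, mmu-miR-16-5p and mmu-miR-195a-5p had the same base at 19 of 22 positions, and mmu-miR-15a-5p and mmu-miR-15b-5p at 18 of 21. At the other end, mmu-miR-16-5p and mmu-miR-497a-5p matched at 11 of 21 positions, of which 4 of 13 lay beyond base 8. Against the RefSeq mature sequences (GRCm38.p6), the listed forms of miR-15b-5p, miR-16-5p and miR-322-5p were identical. Those of miR-15a-5p, miR-497a-5p and miR-322-3p were 1 base shorter at the 3′ end, and that of miR-195a-5p was 1 base longer there.

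The members come from 4 places in the genome, all given on GRCm38 from RefSeq and GENCODE. Mir15a and Mir16-1 lie 54 bases apart on the minus strand of chromosome 14, in an intron of the long noncoding RNA Dleu2, with the mature miR-15a-5p at chr14:61632075-61632096. Mir15b and Mir16-2 lie 66 bases apart on the plus strand of chromosome 3, in an intron of Smc4, which encodes a condensin subunit, with miR-15b-5p at chr3:69009775-69009796. The mature miR-16-5p is the same at chr14:61631936-61631957 and chr3:69009918-69009939, so its reads cannot be assigned to 1 gene. Mir497 and Mir195a lie 241 bases apart on the plus strand of chromosome 11, with miR-497a-5p at chr11:70234730-70234751 and miR-195a-5p at chr11:70235062-70235082. Mir322 lies on the minus strand of the X chromosome, 200 bases from Mir503. No GENCODE gene other than miRNAs spans the chromosome 11 or X hairpins.

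Levels are given as CPM, the counts per 1e+06 reads of the library after its scaling by the trimmed mean method (TMM), and no length correction was made because 1 read covers a whole miRNA. The member with the highest level was mmu-miR-16-5p, rank 83 of the 1013 sequences. It stood at 753, 627 and 1149 CPM in control libraries 1, 2 and 3 and at 1125, 994 and 902 CPM in PS-NP libraries 1, 2 and 3. The third control was the highest of all 6 libraries and the second control the lowest, so the controls alone spanned the whole range.

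Next came mmu-miR-497a-5p, at 202.8, 133.5 and 195.3 CPM in the controls and 244, 232 and 121 CPM with PS-NP. Both the highest and the lowest library were PS-NP libraries. Its neighbour mmu-miR-195a-5p stood at 121, 80.4 and 156 CPM in the controls and 178, 146 and 106 CPM with PS-NP, again with overlapping groups.

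mmu-miR-15b-5p stood at 151.6, 128.1 and 161.4 CPM in the controls and 171, 108 and 117 CPM with PS-NP. Here 2 of the 3 PS-NP libraries lay below every control and the other lay above them. mmu-miR-15a-5p, from the other copy of the gene pair, was lower, at 21.1, 24.0 and 34.7 CPM in the controls and 26.4, 39.6 and 27.2 CPM with PS-NP.

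mmu-miR-322-3p stood at 41.2, 38.8 and 42.6 CPM in the controls and 43.2, 46.2 and 56.1 CPM with PS-NP. It was the one member whose PS-NP libraries all lay above the controls, and the nearest libraries of both groups, control library 3 and PS-NP library 1, stood close together. mmu-miR-322-5p, the strand that carries the family seed, had the fewest reads, 26, 16 and 38 in the controls and 30, 66 and 69 with PS-NP, or 2.34 to 6.13 CPM and 4.50 to 7.35 CPM. At this depth its values carry more counting error than those of the other members.

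**Figure D1:**
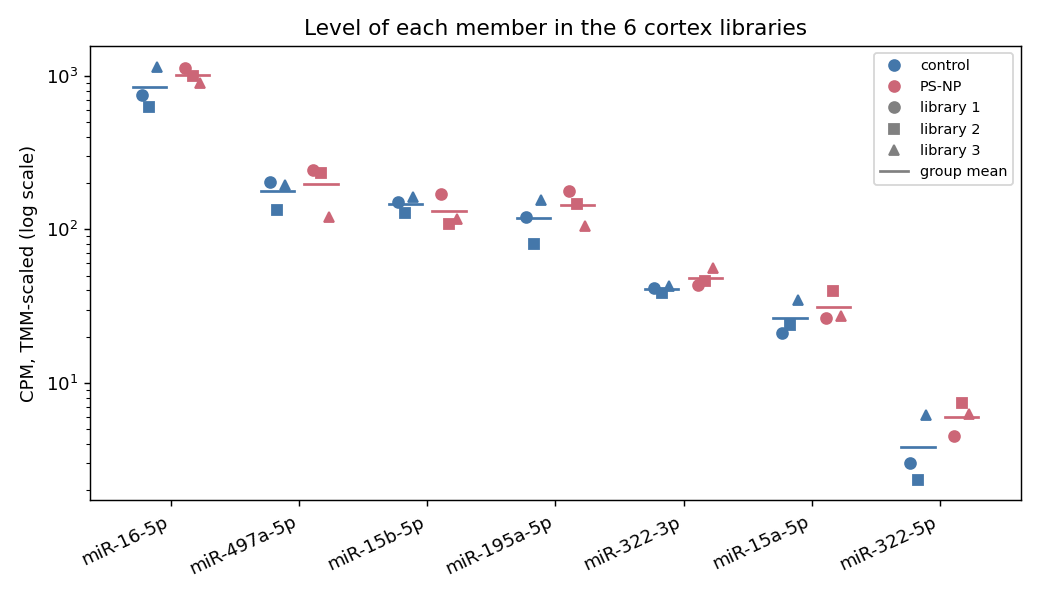
CPM of each member (log scale) in the control and PS-NP libraries, 1 point per library with its number as the marker shape and the group mean as a line. miR-16-5p stands near 925 CPM and miR-322-5p near 4.93 CPM on average, and for 6 of the 7 members the points of both groups overlap.

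The order of the levels was stable at its ends and not in its middle. mmu-miR-16-5p was 3.71 to 7.48 times as high as mmu-miR-497a-5p within a library. mmu-miR-497a-5p exceeded mmu-miR-15b-5p in 6 of 6 libraries, by as little as 1.03 times, and their ranges over libraries overlapped. mmu-miR-15b-5p and mmu-miR-195a-5p did not differ beyond their spread: the first was higher in 4 of 6 libraries, and its log2 ratio to the second was 0.12 ± 0.37 (SD, n = 6 libraries). In 6 of 6 libraries mmu-miR-195a-5p was at least 1.88 times as high as mmu-miR-322-3p. Within each library mmu-miR-322-3p was at least 1.17 times as high as mmu-miR-15a-5p, though their ranges over libraries overlapped. mmu-miR-15a-5p was at least 4.35 times as high as mmu-miR-322-5p, again in 6 of 6 libraries.

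The main comparison asked whether PS-NP cortex held more or less of these miRNAs than control cortex. For mmu-miR-16-5p the control mean was 843 ± 272 CPM (SD, n = 3) and the PS-NP mean 1007 ± 112 CPM (SD, n = 3), a difference smaller than the SD of the controls. None of the 7 members passed an adjusted p of 0.05 in the edgeR quasi-likelihood test of all 639 tested sequences, in which the share called was 0%. At an unadjusted p under 0.05 there were 0 of 7 members, beside 2.35% of all tested sequences (15 of 639). In limma-voom 0 and in DESeq2 0 of the 639 sequences passed the adjusted threshold, with 17 and 15 at an unadjusted p under 0.05.

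The intervals show how large a difference could have been missed. For mmu-miR-16-5p the log2 difference, PS-NP minus control, was 0.26 (95% interval −0.28 to 0.79). For mmu-miR-195a-5p it was 0.26 (−0.39 to 0.91) and for mmu-miR-497a-5p 0.16 (−0.50 to 0.83), intervals that span both lower and higher levels. mmu-miR-15a-5p had 0.23 (−0.39 to 0.85). mmu-miR-15b-5p, from the sister hairpin pair, was the single member on the negative side, at −0.16 (−0.66 to 0.35).

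The log2 difference farthest from 0 belonged to mmu-miR-322-5p, at 0.67 (−0.32 to 1.66), with an edgeR unadjusted p of 0.158 and an adjusted p of 0.906. Its opposite strand mmu-miR-322-3p had 0.25 (−0.19 to 0.69). Of the 7 members 6 had a value above 0, beside 47.9% of all tested sequences, and their median was 0.25, beside −0.02 for all tested sequences. The groups did not overlap in 1 of 7 members (mmu-miR-322-3p), beside 9.55% of all tested sequences (61 of 639).

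**Figure D2:**
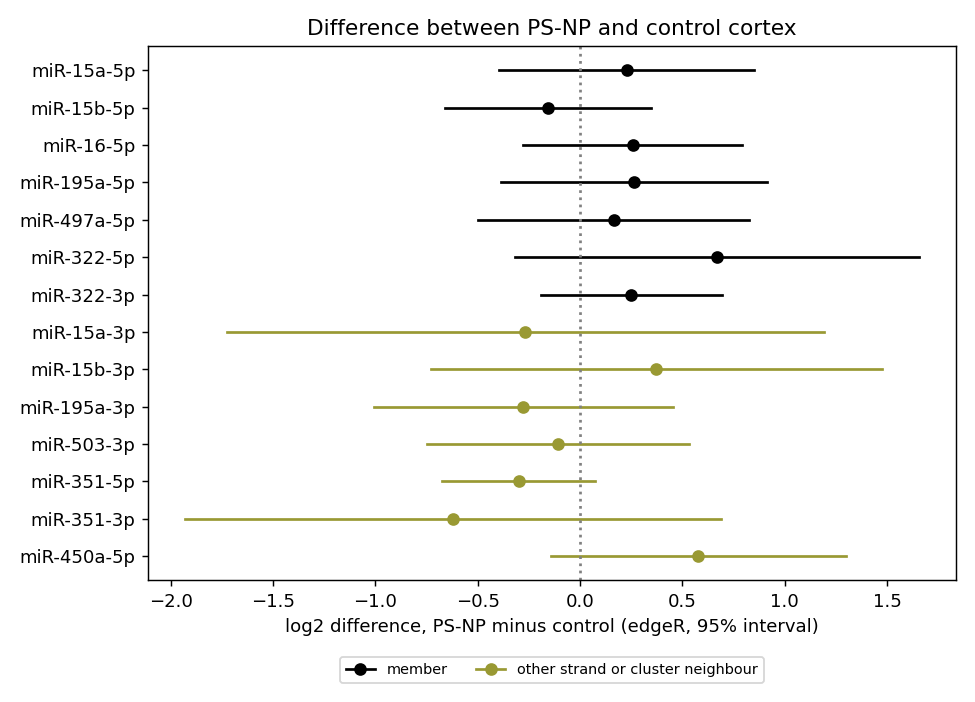
Log2 difference between PS-NP and control cortex from edgeR, with its 95% interval, for the 7 members (black) and the 7 tested other strands and cluster neighbours (olive). All 14 intervals include 0, the widest member interval being that of miR-322-5p.

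Single libraries moved these values. The log2 difference of mmu-miR-16-5p was 0.54 without control library 3, its highest library, and 0.08 without control library 2, its lowest. For mmu-miR-195a-5p it was 0.50 and 0.04 in the same cases, and for mmu-miR-322-5p 1.17 and 0.42. The value of mmu-miR-497a-5p was −0.01 with PS-NP library 1 left out and 0.41 with PS-NP library 3 left out, and that of mmu-miR-15a-5p was 0.00 with PS-NP library 2 left out and 0.46 with control library 3 left out. For mmu-miR-15b-5p it was −0.39 with PS-NP library 1 left out and −0.05 with PS-NP library 2 left out. For mmu-miR-322-3p, the member whose groups did not overlap, it was 0.11 with PS-NP library 3 left out, its highest library.

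Together, the sequences with the seed AGCAGCA at bases 2 to 8 made up 0.114% to 0.168% of the reads of a library. They were the 6 members with that seed and 2 further forms of miR-16, described below, and summed to 1284, 1026 and 1743 CPM in the controls and 1796, 1580 and 1322 CPM with PS-NP. The group ranges of this sum overlapped. mmu-miR-16-5p contributed 58.6% to 68.2% of it, mmu-miR-497a-5p 9.11% to 15.8%, mmu-miR-15b-5p 6.85% to 12.5% and mmu-miR-195a-5p 7.84% to 9.92%. mmu-miR-15a-5p contributed 1.47% to 2.51% and mmu-miR-322-5p 0.228% to 0.472%. The abundant miR-103-3p and miR-107-3p carry the same letters from base 1 instead of base 2, which gives them another seed, and were not counted.

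**Figure D3:**
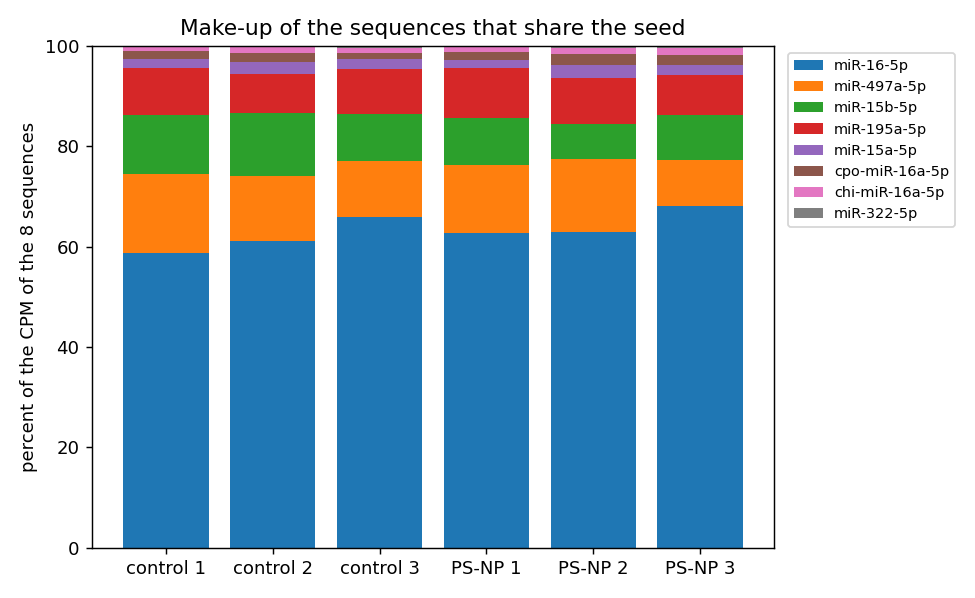
Make-up of the 8 sequences that share the seed in each library, as percent of their summed CPM, stacked. miR-16-5p takes 58.6% to 68.2% of the sum in every library, while miR-15b-5p is above miR-195a-5p in 4 of the 6 libraries and below it in PS-NP libraries 1 and 2.

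Members from neighbouring hairpins can be compared within a library, where the scaling cancels. The reads of mmu-miR-497a-5p were 1.67, 1.66 and 1.25 times those of mmu-miR-195a-5p in the controls and 1.37, 1.59 and 1.14 times with PS-NP. This ratio varied less than the level of either miRNA. Its highest value was below 1.5 times its lowest, against 2.02 times for mmu-miR-497a-5p and 2.22 times for mmu-miR-195a-5p. A ratio cancels what both miRNAs share in a library, so a steady ratio is not particular to neighbours. mmu-miR-16-5p and mmu-miR-195a-5p, from separate places in the genome, also held steady shares of the seed sum (58.6% to 68.2% and 7.84% to 9.92%). The reads of mmu-miR-16-5p cannot be split between its gene copies, so its ratios do not compare neighbours of a single cluster alone. The ratio of mmu-miR-16-5p to mmu-miR-15b-5p was 4.97, 4.89 and 7.12 in the controls and 6.59, 9.18 and 7.69 with PS-NP. That of mmu-miR-16-5p to mmu-miR-15a-5p was 35.8, 26.1 and 33.1 in the controls and 42.6, 25.1 and 33.2 with PS-NP, and both overlapped between groups.

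The strand of a hairpin that stays in Argonaute is usually the more abundant one. The miR-322 hairpin differed in this from Mir15a, Mir15b and Mir195a. The sequence of the miR-322 hairpin is shown because both strands are members. RefSeq places it at chrX:53054255-53054349 (GRCm38.p6, minus strand), and the capitals mark the 5p strand and then the 3p strand:
Mir322 hairpin: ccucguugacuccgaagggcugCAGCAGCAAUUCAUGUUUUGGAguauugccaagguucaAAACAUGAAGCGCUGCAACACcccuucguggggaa

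The 5p strand, which carries the family seed, made up 6.81%, 5.69% and 12.6% of the reads of the miR-322 hairpin in the controls and 9.43%, 13.7% and 10% with PS-NP. The family seed strand held most reads in Mir15a (92.1% to 97.2%), Mir15b (97.6% to 99.1%) and Mir195a (90.5% to 96.0%). No strand usage was computed for Mir497. In Mir503, next to Mir322, the 3p strand was also the more abundant, with 74 to 164 reads against 0 to 18 for the 5p strand. The opposite strands of miR-16, miR-16-1-3p and miR-16-2-3p, had 0 to 5 and 0 to 9 reads, too few to read a ratio from. Values between 0 and 5 reads are rare in the table, so a listed 0 may stand for a few reads.

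No difference in strand usage between groups was established, and the design could not have passed a threshold of 0.05. As log2 of (5p reads + 1)/(3p reads + 1), it was −3.49 ± 0.64 in controls and −3.0 ± 0.32 with PS-NP for Mir322 (SD, n = 3 each). It was 4.25 ± 0.69 and 4.70 ± 0.24 for Mir15a, 6.00 ± 0.64 and 5.46 ± 0.21 for Mir15b, and 3.35 ± 0.18 and 3.93 ± 0.55 for Mir195a. The difference of 0.58 for Mir195a was larger than either group's SD, but its groups overlapped, and for Mir15a, Mir15b and Mir322 the difference was smaller than the SD of the controls. In exact two-sided permutation tests of these 4 hairpins the lowest p was 0.2, for Mir195a, and their adjusted p was 0.45 to 0.48. The adjustment ran over the 6 hairpins computed. These included Mir16-1 and Mir16-2, with p of 0.5 and 0.1 in the same permutation test, which rest on the few 3p reads given above. With 3 libraries against 3 such a test cannot give a p below 0.1.

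**Figure D4:**
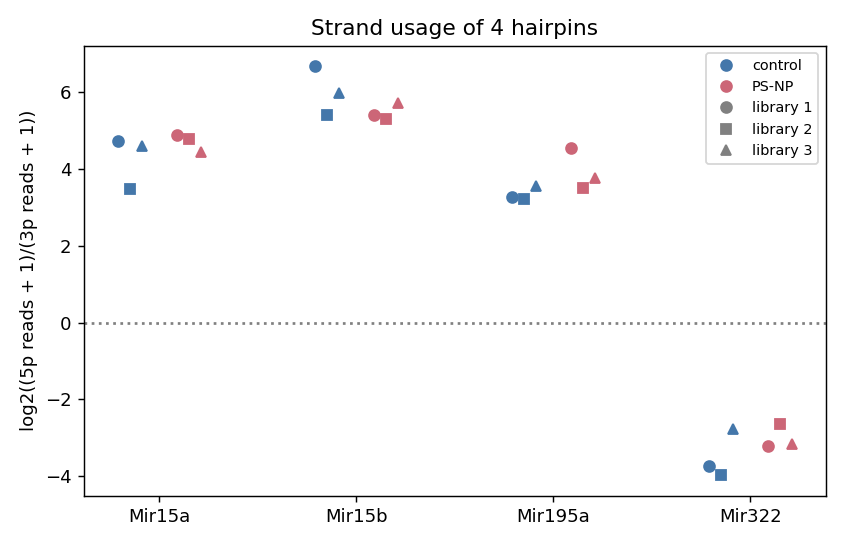
Strand usage of 4 hairpins as log2 of (5p reads + 1)/(3p reads + 1), 1 point per library with its number as the marker shape. Values above 0 mean more 5p reads: Mir15a, Mir15b and Mir195a stand above 0 in every library, Mir322 below 0 in every library.

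The other strands and cluster neighbours of the members were taken from a list of 19 names, of which 12 were analysed here and 7 could be tested. Of these 7, 0 passed the adjusted threshold in either direction, beside 0% of all tested sequences. A log2 difference above 0 was found for 2 and below 0 for 5, beside 47.9% above 0 for all tested sequences. Their median was −0.27, beside −0.02. The groups did not overlap in 2 of the 7 (miR-351-5p and miR-450a-5p, described below), beside 9.55% of all tested sequences. Among the other strands, the log2 difference was −0.27 (95% interval −1.73 to 1.19) for miR-15a-3p, 0.37 (−0.73 to 1.48) for miR-15b-3p and −0.28 (−1.01 to 0.46) for miR-195a-3p. All 3 are minor strands, at means of 1.22, 2.58 and 10.4 CPM.

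On the X chromosome, miR-322 lies in a cluster with other miRNAs. Among them miR-351-5p, which shares the seed of the miR-125 family, stood at 265, 242 and 218 CPM in the controls and 193, 193 and 204 CPM with PS-NP. All its PS-NP libraries lay below the controls, with a log2 difference of −0.30 (−0.67 to 0.08) that missed the adjusted threshold (edgeR adjusted p 0.906). miR-450a-5p has the same mature sequence in the hairpins Mir450-1 and Mir450-2 of this cluster. It stood at 7.05, 6.43 and 5.80 CPM in the controls and 7.65, 7.90 and 13.2 CPM with PS-NP, all above the controls. Its log2 difference was 0.58 (−0.14 to 1.30). With PS-NP library 3 left out it was 0.25.

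miR-503-3p, the more abundant strand of the hairpin next to miR-322, had −0.11 (−0.75 to 0.53). The reads of miR-351-5p were 6.42, 6.25 and 5.12 times those of mmu-miR-322-3p in the controls and 4.47, 4.17 and 3.63 times with PS-NP. This ratio did not overlap between groups, and it is given as a description of 1 of the 8 ratios computed, without a test. miR-503-5p, whose seed AGCAGCG differs from the family seed at its last base, had 0 to 18 reads and was not tested.

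The difference between groups moved with base composition over all miRNAs. Across the 639 tested sequences, which are not independent replicates, the log2 difference ran against the share of G and C bases (Spearman's rho −0.467). The members hold 38.1% to 52.4% G and C, miR-351-5p 60.0%, miR-351-3p 63.6% and miR-450a-5p 31.8%, against a mean of 50.6% for all tested sequences. Of the 339 tested sequences within the members' range of composition, 61.7% had a log2 difference above 0, with a median of 0.09. With the composition trend of each library removed, the median of the 7 members was 0.15 with 6 above 0, and that of the 7 neighbours and other strands was −0.11 with 2 above 0. The log2 difference was then 0.18 for mmu-miR-16-5p, 0.06 for mmu-miR-15a-5p, −0.30 for mmu-miR-15b-5p, 0.13 for mmu-miR-195a-5p and 0.19 for mmu-miR-497a-5p. It was 0.54 for mmu-miR-322-5p and 0.15 for mmu-miR-322-3p, and among the neighbours −0.14 for miR-351-5p and 0.30 for miR-450a-5p.

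**Figure D5:**
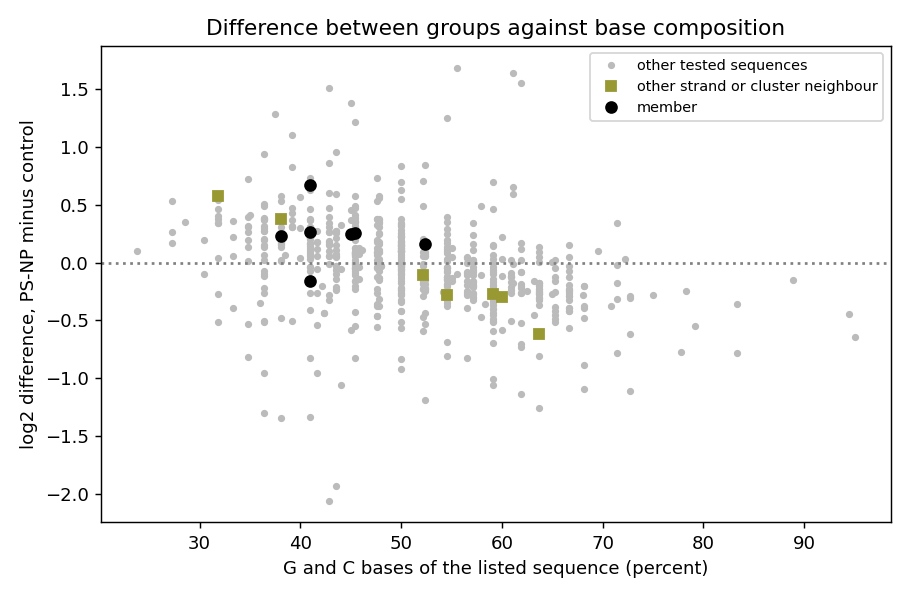
Log2 difference between PS-NP and control cortex against the share of G and C bases of each of the 639 tested sequences, with the members in black and their other strands and cluster neighbours as olive squares. Grey points drift from above 0 on the left to below 0 on the right (Spearman's rho −0.467), and the members, at 38.1% to 52.4%, lie in the left and middle part.

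A pair of sequences listed under names from other species are forms of miR-16. They share its first 20 bases and end differently, and neither stands in the mouse Mir16-1 or Mir16-2 hairpin as listed. The capitals mark the bases after the shared stretch:
cpo-miR-16a-5p: tagcagcacgtaaatattggA
chi-miR-16a-5p: tagcagcacgtaaatattggAA

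The shorter form stood at 20.2, 19.9 and 22.4 CPM in the controls and 29.7, 35.7 and 28.0 CPM with PS-NP. All PS-NP libraries lay above the controls, with a log2 difference of 0.58 (0.10 to 1.06) that missed the adjusted threshold (edgeR unadjusted p 0.0230, adjusted p 0.906). With the composition trend removed its log2 difference was 0.40. The longer form stood at 11.1, 11.4 and 17.6 CPM in the controls and 17.7, 17.7 and 16.4 CPM with PS-NP, with overlapping groups and a log2 difference of 0.37 (−0.22 to 0.97). Relative to the reads of mmu-miR-16-5p in the same library, the shorter form came to 2.69%, 3.17% and 1.95% in the controls and 2.64%, 3.59% and 3.10% with PS-NP, and these groups overlapped. The longer form came to 1.47% to 1.82% of the reads of mmu-miR-16-5p.

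miR-16 is also abundant in red blood cells, whose marker miR-451a was present. miR-451a stood at 47.9, 37.2 and 91.9 CPM in the controls and 71.7, 58.3 and 48.8 CPM with PS-NP. Its lowest and highest libraries were control library 2 and control library 3, the same as for mmu-miR-16-5p. In both groups the libraries stood in the same order for both miRNAs. The member mmu-miR-195a-5p and the striated muscle marker miR-133a-3p had that order too, while the striated muscle markers miR-1a-3p and miR-206-3p did not. miR-181d-5p also had it, but it is named below because its profile was the closest to that of mmu-miR-16-5p. How common that order is over all tested sequences was not counted. Control library 2 was the lowest library for 25.9% of the 228 tested sequences with a mean of at least 100 CPM. The more abundant red blood cell marker miR-486b-5p stood in another order, at 1043, 741 and 731 CPM in the controls and 1004, 564 and 575 CPM with PS-NP. Its highest library was control library 1, and control library 3, the highest for mmu-miR-16-5p, was its lowest control. The summed red blood cell markers, of which 4 of 5 were analysed, ran from 778 to 1092 CPM in the controls and from 622 to 1076 CPM with PS-NP, and miR-144-3p and miR-144-5p were at or near 0. Sums of 2 of the 7 marker lists did not overlap between groups, beside 9.55% of all tested sequences taken singly. The endothelial and smooth muscle list (4 of 4 markers) summed to 4449 to 5667 CPM in controls and 5726 to 7228 CPM with PS-NP, and the leukocyte and microglia list (3 of 4 analysed) to 18.6 to 25.3 and 27.9 to 32.5 CPM. Taken singly, miR-126a-3p was the one marker of these lists whose groups did not overlap, miR-145a-5p had a log2 difference of −0.13 where the other 3 of the endothelial and smooth muscle list were above 0, and all 3 leukocyte and microglia markers overlapped. Their part in the values of the members was not tested.

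Finally, the tested sequences with a mean of at least 100 CPM were ranked by how closely their profile over the 6 libraries followed each of the 3 most abundant members, as the root mean square difference of centred log2 CPM. Closest to mmu-miR-16-5p were miR-181d-5p (0.13), miR-26b-5p (0.14) and miR-26a-5p (0.15), against a median of 0.36 over the 227 sequences compared. Closest to mmu-miR-497a-5p were miR-181b-5p (0.16), miR-34a-5p (0.17) and miR-132-5p (0.20), against a median of 0.41. Closest to mmu-miR-15b-5p were miR-3072-3p (0.09), mir-3102-p3 (0.10) and miR-874-3p (0.12), against a median of 0.30. No other member with a mean of at least 100 CPM was among the 3 closest to any of these. mmu-miR-322-3p, mmu-miR-15a-5p and mmu-miR-322-5p were below that level and could not appear. The libraries compared are the same 6 for all.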

How the data were processed

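Small RNA of mouse prefrontal cortex was extracted with Trizol and made into libraries with the TruSeq Small RNA kit, per the labels' protocols, which also state that ACGT101-miR filtered the reads. Which genome build, miRBase release and mismatch setting applied was not given in the sources used here. No label ties a library to its own mouse. The p-values therefore reflect library-to-library spread, which may be technical.

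The raw values of the deposited table were read as estimated counts. That entries sharing a sequence (78 of 1013 sequences, miR-16-5p among them) carry its reads divided equally is inferred from their equal and often fractional values, not stated in the labels, and the printed level of miR-16-5p rests on it. They were summed per sequence and rounded to whole numbers, after which 95.05% of values were whole (within 1e-06) before rounding. Of 3981 whole values above 0 on single entries, 18 were under 5 and 256 were exactly 5. The norm values are a signal that the authors made as raw value times 1 factor per library (0.714 to 1.27), used here only as an alternative scaling. Another 3 lines were not analysed here.

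Testing was limited to sequences that reached 10 reads in 3 or more of the 6 libraries (639, holding at least 99.98% of the reads of each library) with edgeR 4.0.16 in R 4.3.3, TMM factors 0.863 to 1.115, quasi-likelihood test and Benjamini-Hochberg adjustment over all. The common biological coefficient of variation was 30.6%. The alternatives used limma 3.58.1 and DESeq2 1.42.0. Strand usage was tested by exact permutation with scipy 1.17.1. The edgeR script was tested on simulated data with known changes. These were larger than the difference of any member, so the run does not show how well smaller differences are found. Sequences named in the text are the members and, by an added rule, their other strands and cluster neighbours, other sequences with the seed, and the 3 closest profiles. Members and lists were chosen with earlier results of these data known.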

Additional observations from a re-analysis of the deposited data

How the results depend on the processing

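The counts of sequences past the adjusted threshold, over all sequences and among the members, other strands, neighbours and miR-16 forms, were 0 in edgeR and 0 under each of the other scalings, tools and filters, the composition correction, and each left-out library. The smallest adjusted p among these alternatives was 0.479. With the replicate number as a block the count was 0, with 32 sequences at an unadjusted p under 0.05 against 15 without it. Same-numbered libraries deviated from their group means with r = 0.309, 0.152 and −0.171 across sequences, so the numbers were not taken to pair the libraries, and not every library correlated best with its own number. Of 20 single values, 17 kept their direction under every alternative that gave a value. With single libraries left out, the log2 difference of miR-15a-5p ran from 0.00 to 0.46, that of miR-497a-5p from −0.013 to 0.41 and that of miR-503-3p from −0.30 to 0.11. The lowest unadjusted p of a member was 0.0224 (miR-322-5p without control library 3, edgeR), with no adjusted call. Under the filter of a mean of at least 100 reads, miR-322-5p and the minor strands were not tested. Depth limits miR-322-5p and the minor 3p strands most, with 69 reads or fewer in a library for miR-322-5p.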
